A study of Mus musculus with 2 samples.

Results

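The insulin-like growth factor (IGF) binding proteins are 7 secreted proteins encoded by Igfbp1 to Igfbp7. They were examined in RNA from isolated glomeruli, the filtering units of the kidney, of male KK/Ta mice aged 20 weeks. Both diet groups are of the inbred strain KK/Ta, whose mice become obese and diabetic. One group had been fed a high-fat diet (HFD, 1 array) and the other a normal fat chow diet (Chow, 1 array). The series text counts 3 mice, but how many of them contributed to each array, and whether RNA was pooled, is not stated in the labels. Every probe set of the Affymetrix Mouse Genome 430 2.0 array whose platform gene symbol was exactly Igfbp1 to Igfbp7 was taken. The rule found 16 probe sets for the 7 genes, among 34945 probe sets that name 1 gene (18193 genes in all). A probe set is a group of short oligonucleotides that together report 1 transcript.

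Most IGF1 and IGF2 outside cells is held by binding proteins. They lengthen the life of the growth factors, carry them to tissues, and keep them from the IGF1 receptor until proteases cut the carrier. IGFBP1 to IGFBP6 bind the growth factors tightly, whereas IGFBP7 binds them weakly and is better known as a protein of vessel walls and stressed epithelium. In the kidney, IGF1 acts on filtration and growth, and the binding proteins set how much free ligand glomerular cells meet.

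The windows before the transcription start are shown for 3 members, 1 whose probe set lay under the median of both arrays (Igfbp1) and 2 that include very bright probe sets (Igfbp5 and Igfbp7). Each is the 250 bases before the start of the gene as RefSeq annotates it on GRCm38.p6, written 5′ to 3′ on the gene's strand. Capitals mark matches to 3 motifs that were searched on both strands. The first is CAAAACAA, the core of the insulin response element known from IGFBP1 promoters. The second is the TATA box, spelled TATAAA. The third is the GC box to which zinc finger factors of the Sp family bind, spelled GGGCGG.
Igfbp1 (chr11:7197537-7197786, plus strand): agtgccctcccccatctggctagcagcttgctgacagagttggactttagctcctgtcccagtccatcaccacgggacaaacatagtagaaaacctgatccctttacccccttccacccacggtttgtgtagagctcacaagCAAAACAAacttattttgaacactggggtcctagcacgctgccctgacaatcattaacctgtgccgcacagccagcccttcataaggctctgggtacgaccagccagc
Igfbp5 (chr1:72874866-72875115, minus strand): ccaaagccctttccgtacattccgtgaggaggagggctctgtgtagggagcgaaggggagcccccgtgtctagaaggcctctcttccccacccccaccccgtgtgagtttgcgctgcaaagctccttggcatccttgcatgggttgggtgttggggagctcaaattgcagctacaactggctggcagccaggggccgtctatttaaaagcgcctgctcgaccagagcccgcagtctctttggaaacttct
Igfbp7 (chr5:77408046-77408295, minus strand): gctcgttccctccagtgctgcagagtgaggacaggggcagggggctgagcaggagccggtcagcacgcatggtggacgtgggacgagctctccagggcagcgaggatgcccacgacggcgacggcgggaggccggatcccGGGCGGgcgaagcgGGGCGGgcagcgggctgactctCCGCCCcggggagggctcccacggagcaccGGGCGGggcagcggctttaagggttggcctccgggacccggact
The table of promoters held 8 windows for the 7 genes, and Igfbp2 had 2 of them. Letters of the insulin response core stood in 1 of the 8, that of Igfbp1, where the match begins 108 bases before the start; 2.21% of all 32851 windows of this length hold it. The TATA box letters stood in 2 of 8 windows, those of Igfbp4 (28 bases before the start) and Igfbp6 (148 bases, on the opposite strand), and in 12.4% of all windows. The GC box letters stood in 2 of 8, with 4 matches before Igfbp7 and 3 in 1 of the Igfbp2 windows, and in 32.7% of all windows. The number of CG dinucleotides ran from 5 before Igfbp1 to 32 before Igfbp3, beside a median of 6 over all windows. A match is a description of letters and not evidence that a factor binds there. In the genome, Igfbp1 and Igfbp3 are next to each other on chromosome 11, and Igfbp2 and Igfbp5 are next to each other on chromosome 1. Igfbp3 is followed by the tensin gene Tns3, and Igfbp4 by Tns4.

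Values are the deposited linear signals. For differences, each array was put on a log2 scale and centred on its median, and a signal under that median, called the floor here (42.3 for HFD and 44.9 for Chow), was raised to it. Centring added 0.083 to every HFD minus Chow difference. No value has a replicate, so no test, standard error or p-value is given between the diets. In its place, each difference is set beside the local scatter, which is the scaled median absolute deviation of the differences of the 1000 probe sets nearest in mean signal. It holds technical noise and real differences together and says nothing of the spread between mice. A signal also depends on the probes, so the level of 1 probe set is not comparable with that of another, and the positions given below are places on the array and not amounts of RNA.

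Of the 16 probe sets, 13, from Igfbp3, Igfbp4, Igfbp5 and Igfbp7, were above the floor on both arrays. Those of Igfbp1, Igfbp2 and Igfbp6 were under it on both. None of the 13 differed by 2-fold between the diets, and the differences ran from -0.60 to 0.40 on the log2 scale. A 2-fold difference in either direction was seen in 0.792% of the 20317 named probe sets above the floor, so a count of 0 among 13 lies near that background. At 1.5-fold the count was 1 of 13, an Igfbp5 probe set that was lower in HFD, beside 1.97% lower and 5.75% in either direction over all named probe sets.

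**Figure D1:**
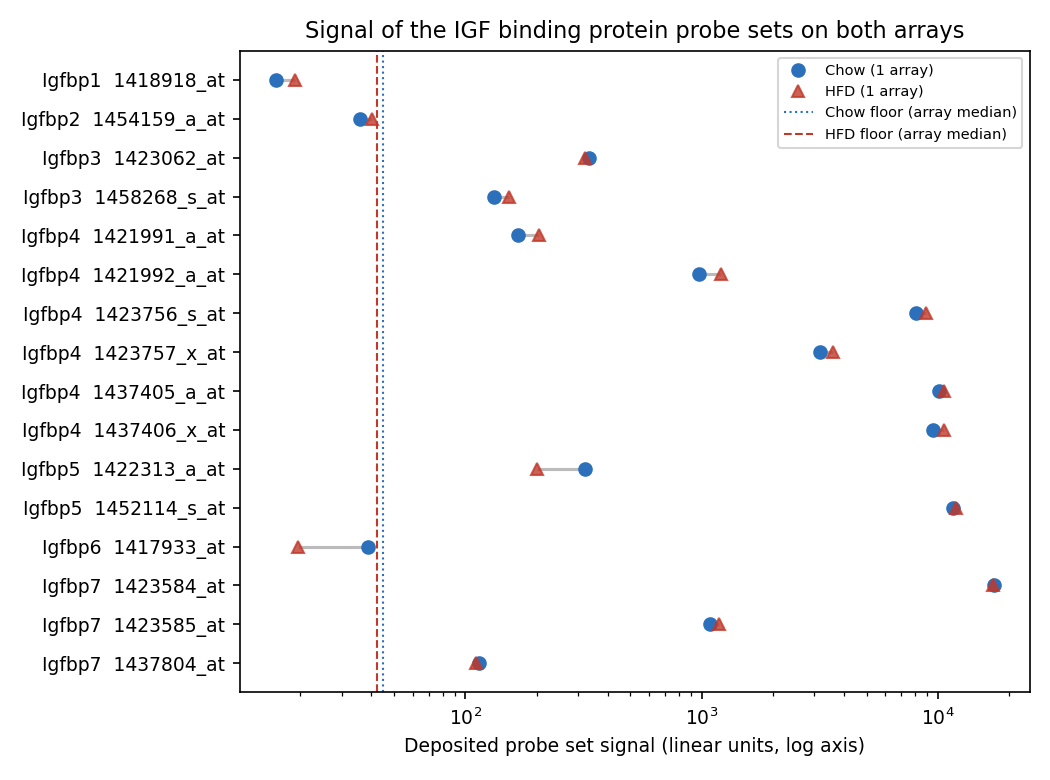
Deposited signal of each of the 16 probe sets on the HFD array (triangles) and the Chow array (circles), on a log axis, with the floor of each array as a vertical line. The probe sets of Igfbp1, Igfbp2 and Igfbp6 lie left of both floors, and the widest gaps between the diets are those of Igfbp6 (19.6 against 38.6) and 1 Igfbp5 probe set (201 against 322).

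Igfbp4 encodes a small binding protein that holds IGFs away from their receptor and is cut by the protease pappalysin-1 (Pappa). It had 6 probe sets, and the HFD signal was the higher one in each. Probe set 1437406_x_at read 10674 in HFD and 9537 in Chow, and 1437405_a_at read 10659 and 10102. Probe set 1423756_s_at read 8950.0 and 8051, and 1423757_x_at read 3610.1 and 3168. The 2 dimmer ones, 1421992_a_at and 1421991_a_at, read 1210.0 against 971 and 205 against 168. All 6 thus point one way, while the sizes are small. The differences ran from 0.16 (1.12-fold) to 0.40 (1.32-fold) with a median of 0.26, beside a median of 0.049 over all named probe sets above the floor. The local scatter at these signals was 0.14 to 0.27, and 1421992_a_at alone differed by more than 2 times the scatter at its signal (2.28 times). Without centring the 6 remained higher, with a median of 0.18, beside 43.6% higher and a median of -0.034 over all named probe sets. The probe sets of Igfbp4 lay closer together than those of most genes: their differences spanned 0.24, and 83 of the 88 genes with 6 probe sets above the floor on both arrays spanned at least as much (median 0.53). These probe sets share 1 gene, and the suffixes _s_at and _x_at mark probe sets whose probes may match further transcripts, so they are not 6 separate measurements. With those left out, 3 remained, all higher, with a median of 0.37, beside 59.1% higher and a median of 0.053 over all.

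Igfbp5 encodes a binding protein that attaches to extracellular matrix and, like IGFBP3, can join the acid-labile subunit in the circulation. Its 2 probe sets did not agree. The bright one, 1452114_s_at, read 11983 in HFD and 11643 in Chow, a difference of 0.13 (1.09-fold) that lay within the local scatter of 0.14. The other, 1422313_a_at, read 201 in HFD and 322 in Chow, a difference of -0.60 (1.52-fold lower), which is 2.56 times the local scatter of 0.23. It was the only member probe set above the floor that was lower in HFD after centring. Over the alternatives in processing its difference stayed between -0.68 and -0.58, and that of the bright probe set between 0.042 and 0.13. The gap of 0.73 between the 2 is wide: of 2895 genes with exactly 2 probe sets above the floor on both arrays, 94 (3.25%) had a gap at least as large, and the median gap was 0.18. The suffix _a_at marks a probe set for alternative transcripts of 1 gene. Which part of the transcript each probe set reads was not analysed here, so the data give no single direction for Igfbp5.

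Igfbp3 encodes the main IGF carrier of blood, which travels in a complex with the acid-labile subunit. Probe set 1423062_at read 319.8 in HFD and 335 in Chow, which is a difference of 0.018 after centring and -0.065 without it. The second, 1458268_s_at, read 153.5 and 132, a difference of 0.30 (1.23-fold) beside a local scatter of 0.31. Both differences therefore lay within the scatter of probe sets of like signal.

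Igfbp7 encodes a secreted protein of vessel walls whose urinary level is used as a sign of tubular stress. Probe set 1423584_at was among the brightest on the arrays, ranking 6 of 45037 in HFD with a signal of 17129.5 and 3 in Chow with 17278. The highest signals on the arrays were 19489 and 19853, and how far probes this bright still respond to more RNA was not tested. Its difference was 0.071 after centring but was -0.012 without centring and -0.063 with quantile normalization. Probe set 1423585_at read 1184 in HFD and 1081 in Chow, a difference of 0.21 (1.16-fold) beside a scatter of 0.18. Probe set 1437804_at read 111 and 114, a difference of 0.041 that became -0.042 without centring. Igfbp7 was thus bright with both diets and differed by at most 1.16-fold in any probe set.

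Igfbp1, Igfbp2 and Igfbp6 had 1 probe set each. Igfbp1, a gene of liver whose transcription insulin represses, read 19.0 in HFD and 15.8 in Chow, at the 37.3 and 33.3 percentile of the array. Igfbp2, which encodes a binding protein able to attach to integrins, read 40.1 and 35.7 and came closest to the floor. Igfbp6, whose product prefers IGF2, read 19.6 in HFD and 38.6 in Chow. With no floor these differences were 0.35, 0.25 and -0.89. Taken over all probe sets without a floor, those as dim as these scatter widely, by 0.75, 0.48 and 0.55 in the same order. The gap for Igfbp6 was thus 1 to 2 times that scatter and short of 2-fold (1.86-fold). Values under the floor are not ordered here, and an absence of these transcripts from glomeruli is not shown by them. Of the 18193 genes, 6837 were under the floor by their brightest probe set, so this position is common.

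Taken probe set by probe set, 12 of the 13 above the floor were higher in HFD and 1 was lower, with a median of 0.21. Over all named probe sets above the floor, 58.7% were higher and the median was 0.049, so a lean to the HFD side is shared by the array. The count depends on the scaling: it was 9 of 13 without centring, when 43.6% of all were higher. It was 10 of 13 with quantile normalization (52.3% of all) and 11 of 13 with loess (53.0% of all). Of the 13 probe sets, 6 belong to Igfbp4, and with 1 probe set per gene, the brightest, the median over the 4 genes was 0.098 beside 0.064 over all genes. That order turned with quantile normalization (0.015 beside 0.024) and when _s_at and _x_at probe sets were left out (0.045 beside 0.068). With quantile normalization, and also without centring, 2 of the 4 genes were higher, beside 54.5% and 46.1% of all genes. With the _s_at and _x_at probe sets left out, 3 of the 4 were higher, beside 62.6% of all genes. Of the 13, 5 lay within 1 local scatter of 0, 6 lay between 1 and 2, and 2 lay beyond 2, namely the Igfbp4 probe set 1421992_a_at and the Igfbp5 probe set 1422313_a_at.

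**Figure D2:**
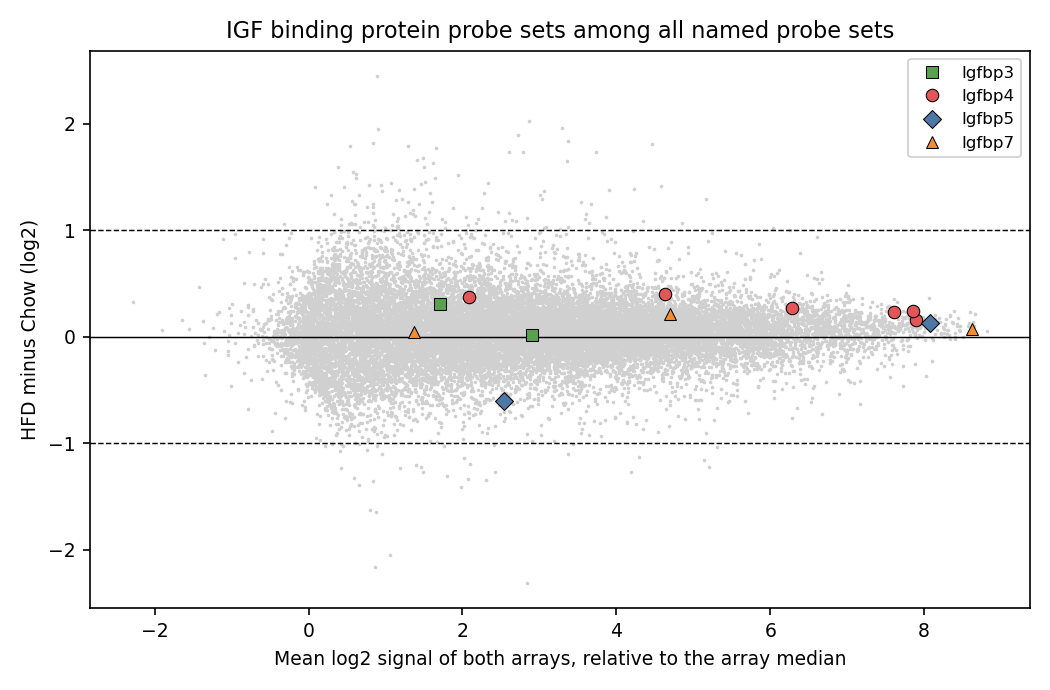
HFD minus Chow difference (log2) of each named probe set above the floor against its mean log2 signal relative to the array median, with all 20317 in grey, the 13 IGF binding protein probe sets in colour and dashed lines at 2-fold. The member probe sets lie inside the 2-fold lines, those of Igfbp4 run from 0.16 to 0.40, and the dimmer Igfbp5 probe set stands apart at -0.60.

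Other genes of the IGF system gave context, with each gene represented by its brightest probe set. A 2-fold difference toward HFD was seen in 0.722% of the 11356 genes above the floor and one toward Chow in 0.159%, and no gene of the 5 lists below reached it. Over all these genes 62.2% were higher in HFD and the median was 0.064. These values were 46.1% and -0.019 without centring, 54.5% and 0.024 with quantile normalization, and 55.2% and 0.027 with loess. The counts below are to be read beside them. Of the ligands and receptors, 4 of 8 genes on the array were above the floor, and all 4 were slightly lower in HFD, with a median of -0.11. Igf2, the fetal growth factor, read 82.7 in HFD and 108 in Chow (-0.30). Igf1r, the receptor that signals for both ligands, had 4 probe sets above the floor with differences from -0.41 to -0.081, and its brightest read 1059 and 1187. Igf2r, the receptor that clears IGF2, had 2, at -0.34 and -0.13. The insulin receptor gene Insr read 1349 and 1459 (-0.029). These 4 genes were also lower without centring and with quantile or loess normalization. Igf1, Ins2, Insrr and Igfals, the gene of the acid-labile subunit, were under the floor on both arrays, and all 4 probe sets of Igf1 were.

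Among proteases that cut binding proteins and their inhibitors, 7 of 15 genes were above the floor, 6 higher and 1 lower, with a median of 0.24. Adam12 read 242 and 186 (0.46), the gelatinase Mmp2 read 2808 and 2298 (0.37), Adamts1 read 3726 and 3180.5 (0.31), and the lysosomal protease Ctsd read 3290 and 2945 (0.24). The pappalysin genes Pappa and Pappa2 and that of their inhibitor, Stc1, were under the floor. Stc2, a second pappalysin inhibitor, was above it in Chow only (30.6 against 49.6), so its lower value is a bound.

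Among 13 genes whose products share the N-terminal domain of the binding proteins, 9 were above the floor, 8 higher and 1 lower, with a median of 0.21. The median was 0.089 with quantile normalization, 0.13 without centring and 0.11 with each gene's median probe set. Htra3 was above the floor in HFD only (45.1 against 36.1), so it could count only as higher and its difference is a bound. Esm1, an endothelial proteoglycan, read 157 and 109, which is 1.53-fold higher, beside 4.21% of all genes at least 1.5-fold higher. The serine protease genes Htra4 and Htra1 stood at 0.49 and 0.22, and the latter is also counted with the proteases. Ccn4 stood at -0.30 in its brightest probe set and at 0.52 in the second, and Crim1 at 0.28 with a second probe set at -0.53. Ccn2, a matrix growth factor of podocytes and mesangium, read 18522 and 16956 (0.21).

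Of 13 genes for reported partners of the binding proteins, 11 were above the floor, 9 higher and 2 lower, with a median of 0.26. Without centring, however, 6 were higher and 5 lower. With each gene's median probe set the list median was 0.11. Itgb3 was above the floor in HFD only (44.1 against 27.1), so it could count only as higher and its difference is a bound. Lrp2 (megalin), an endocytic receptor of proximal tubule, was 1.56-fold higher (273 against 186), and it is also 1 of the tubule markers below. Cd93, an endothelial receptor reported to bind IGFBP7, read 539 and 406 (0.49), with both of its probe sets higher. Fhl2, a nuclear partner of IGFBP5 that is also a mesangial marker here, read 3345 and 2576 (0.46), and the integrin chain Itgb1 read 5497 and 4589 (0.34). Tmem219, which encodes a reported IGFBP3 receptor, read 248 and 276 (-0.072), with 3 probe sets in both directions. Growth hormone and IGF1 signalling genes had 11 of 17 higher and a median of 0.096, near the values over all genes, and 9 of 17 higher with a median of 0.013 without centring (9 of 17 and 0.059 with quantile normalization). Ghr, the growth hormone receptor, was highest (2510.5 against 1899, 1.40-fold, 3 of 3 probe sets higher), and the adaptor gene Irs2 was lowest (124 against 182, -0.47). Pik3r1 stood at 0.23, with 4 of 4 probe sets higher, whereas the 3 probe sets of Foxo3 went both ways, from -0.20 (the brightest) to 0.23.

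**Figure D3:**
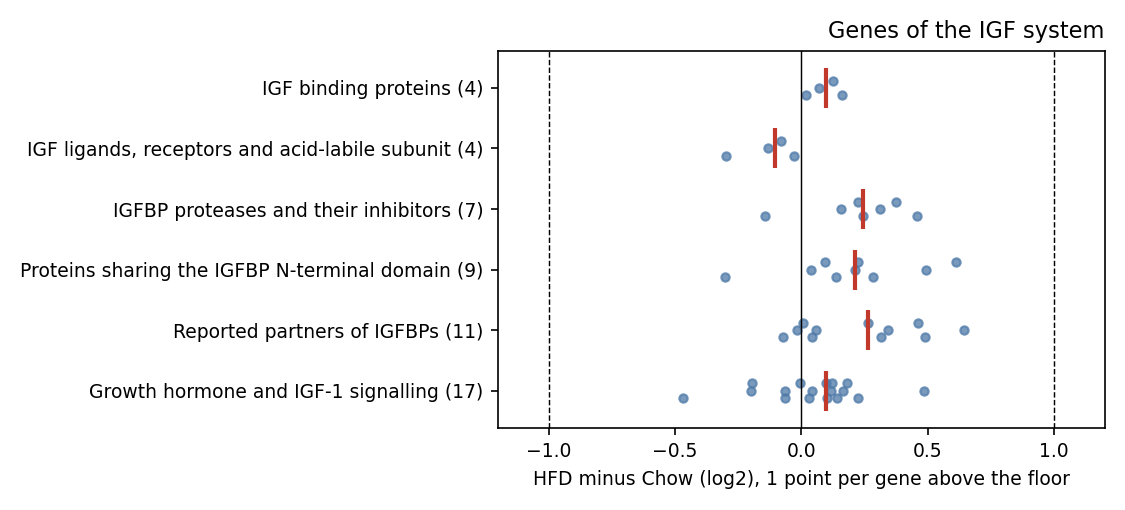
HFD minus Chow difference (log2) of each gene above the floor, by list of the IGF system, 1 point per gene by its brightest probe set, with the list median as a red bar, dashed lines at 2-fold and the number of genes in brackets. No point reaches 2-fold, and the ligand and receptor list is the one whose points all lie below 0 (median -0.11).

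Markers of the cells that glomerular preparations can hold also differed between the arrays. By the brightest probe set, all 17 podocyte and all 18 endothelial markers on the array were above the floor, as were 9 of 10 mesangial markers. Of 5 hepatocyte markers 0 were, although another probe set of Ttr was above it. No marker above the floor had a difference of exactly 0. Podocyte markers were lower for 14 of 17 genes, with a median of -0.12 and a summed signal of 99391 in HFD and 111441 in Chow. Each sum here is of deposited signals, not centred, over all genes of the list on the array, also those under the floor. Bright probe sets weigh most in it. Endothelial markers were higher for 14 of 18 (median 0.18, summed 82275 and 78644) and mesangial markers for 7 of 9 (median 0.15, summed 29993 and 28955). Proximal tubule markers were higher for 19 of 20 (median 0.56, summed 21660.1 and 16020), distal nephron markers for 11 of 12 above the floor (median 0.63, summed 10656.5 and 7573) and macrophage markers for 18 of 19 (median 1.22, summed 9795 and 5734). Of these, Ass1, Scnn1b, Atp6v1b1, Cd68, C1qa, C1qb and C1qc were above the floor in HFD only. They could thus count only as higher, and their differences are bounds. On the same measure, the brightest probe set of a gene, Igfbp4 stood at 0.16 and Igfbp5, Igfbp7 and Igfbp3 at 0.13, 0.071 and 0.018. The part of these cell types in the differences of the binding proteins was not tested, and in RNA from a whole preparation fewer cells of a type and less RNA per cell cannot be told apart. Medians of the smaller lists were 0.27 for smooth muscle (4 genes), 0.059 for parietal epithelium (4) and 0.36 for lymphocytes (3 of 9 above the floor). For fibroblasts it was 0.012 (4 of 7 genes), and -0.072 without centring. The renin cell genes Ren1 and Akr1b7, planned for the smooth muscle list, had no value, so renin cells are not covered. The 2 adipocyte genes above the floor went opposite ways, Fabp4 at 0.25 (2 of its 4 probe sets were lower) and Car3, above the floor in Chow only, at a bound of -1.62.

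**Figure D4:**
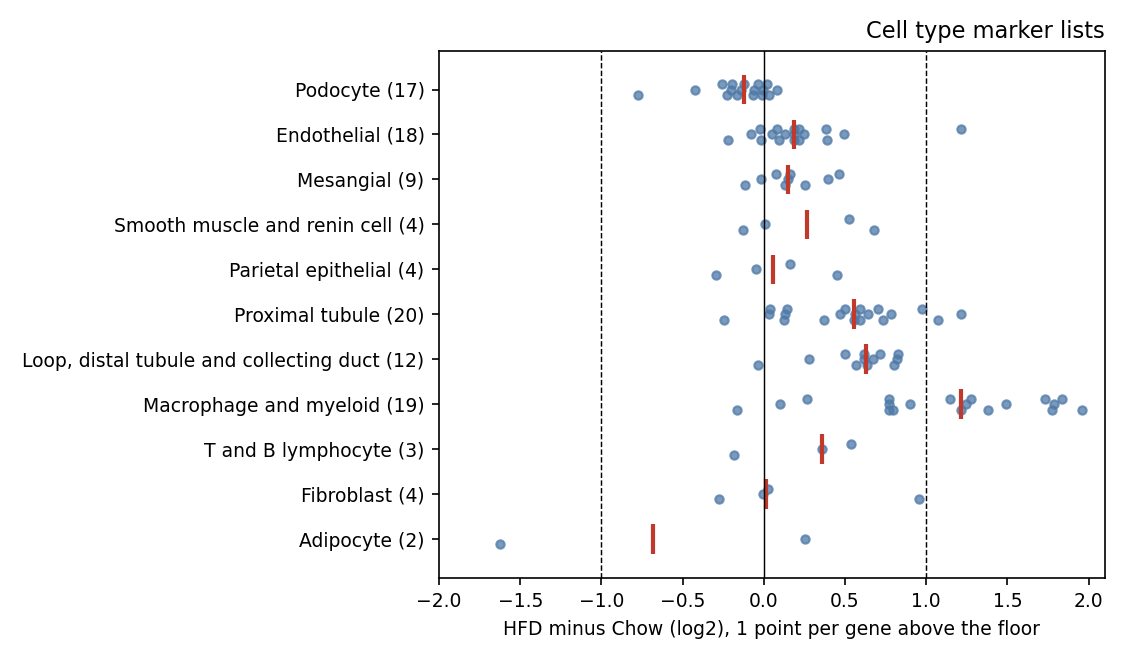
HFD minus Chow difference (log2) of cell type marker genes above the floor, 1 point per gene by its brightest probe set, with the list median as a red bar, dashed lines at 2-fold and the number of genes in brackets. No hepatocyte marker was above the floor by its brightest probe set. Macrophage (median 1.22) and tubule markers (0.56 and 0.63) lie to the right, and podocyte markers (-0.12) slightly to the left. The row for smooth muscle and renin cells holds smooth muscle genes only.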

How the data were processed

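Per the labels' protocols, glomerular RNA came from the Qiagen RNeasy Mini kit and was amplified in 2 cycles to biotinylated cRNA. The deposited values are linear intensities, 1 column per array, with 45101 probe sets of which 64 controls were set aside. The design text names GeneSpring 7.3.1, while summarisation, scaling and detection calls are not given in the sources used here. Precision is limited by the number of arrays, 1 per diet. The signal of the 3′ over the 5′ control probe set was 3.43 in HFD and 3.59 in Chow for Gapdh. For beta-actin it was 1.72 and 1.89. The part of this 3′ lean in the differences between probe sets of a gene was not tested. Symbols are those of the platform's 2016 annotation, and the Entrez identifiers of all 7 members matched RefSeq (GRCm38.p6). From the intensities, log2 values, median centring, the floor at the 50th percentile, differences and local scatter were computed in Python 3.11.15 (pandas 2.3.3, statsmodels 0.14.6). The procedure was also run on simulated data. The changes planted there were larger than any member difference, so that run does not cover differences of the size reported here. The alternatives were no centring, quantile and loess (span 0.3) scaling, a lower (30th percentile) or higher (70th) floor, no floor with or without the 25th percentile added, leaving out _s_at and _x_at probe sets, thresholds of 1.5-fold and 3-fold, and 1 value per gene or a gene's median probe set. The text names every member probe set, the ligands and receptors above the floor, and the genes of the other IGF lists with the largest differences, up to 4 each. Added after their values were seen were Pappa, Pappa2, Stc1, Stc2, Htra1, Htra3, Ccn2, Tmem219, Itgb3, Fabp4, Car3 and Ttr. The same holds for the markers above the floor in HFD only and the genes under the floor. The members and lists were chosen with earlier results of these data known. With 2 arrays a pattern is 1 difference, so no gene of like pattern is named.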

Additional observations from a re-analysis of the deposited data

How the results depend on the processing

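No paired analysis was possible because each diet has 1 array. A change was judged against the local scatter for a probe set and against the scatter of all genes (0.21) for a median. By this measure the differences of the member probe sets, wherever an alternative gave them a value, their median and the medians of the IGF system lists moved less than the scatter, and no member probe set reached 2-fold under the alternatives run. The measure is coarse. The scatter of all genes is larger than several list medians, such as 0.098 for the binding proteins. That median fell to 0.015 with quantile normalization and still lay within the measure. Leaving out centring shifts each difference by 0.083, less than any member's local scatter, so that alternative could not show a move. The 70th percentile floor left 11 of the 13 (Igfbp3 1458268_s_at and Igfbp7 1437804_at fell under it), and leaving out _s_at and _x_at probe sets left 8. The median over member probe sets ran from 0.098 (1 probe set per gene) to 0.23 (no floor or the lower floor). The signs of the smallest differences, those of Igfbp3 1423062_at and of Igfbp7 1423584_at and 1437804_at, changed with the scaling. Lowering the threshold to 1.5-fold raised the member count from 0 to 1. The share of all named probe sets at least 2-fold different, 0.792%, was 3.60% with the 30th percentile floor, 0.321% with the 70th, 18.2% with no floor and 4.07% with the 25th percentile added, and 5.75% and 0.123% at 1.5-fold and 3-fold; a lower floor lets in dimmer probe sets, which scatter more. With lower floors or none, Igfbp1, Igfbp2 and Igfbp6 gained values, from 0.24 to 0.35, from 0.20 to 0.25 and from -0.89 to -0.66. Among marker lists, the macrophage median was 0.84 with the higher floor and 0.94 with a gene's median probe set, the adipocyte median (-0.69) was 0.25, 0.057 and 0.039 with the higher floor, no floor and the added percentile, the lymphocyte median was 0.081 with the higher floor and 0.57 without shared probe sets, the smooth muscle median 0.0090 without them, and the parietal median 0.31 with the median probe set. The fibroblast median lay between -0.14 (higher floor) and 0.027. With 1 array per diet, no alternative measures the variation between mice.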
